A study of Mus musculus with 7 samples.

Results

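The genes described here are 10 costimulatory receptors and ligands, of 55491 gene rows in the count matrix. They were taken by name, with earlier results of these data known. They are 6 receptors (Tnfrsf4, Tnfrsf9, Tnfrsf18, Cd27, Cd40 and Icos) and 4 ligands (Tnfsf4, Tnfsf9, Cd70 and Cd40lg). All 10 were found in the matrix. They are described as CPM, the number of UMIs (unique molecular identifiers, each standing for 1 captured RNA molecule) per 1000000 UMIs of a cell population, for each of the 23 cell populations that the submitters annotated and for each genotype.

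Costimulatory receptors of the TNF receptor superfamily are carried mainly by activated lymphocytes and pass a survival and proliferation signal through TRAF adaptors to NF-kB when a ligand on another cell engages them. OX40 (Tnfrsf4) binds OX40 ligand (Tnfsf4), 4-1BB (Tnfrsf9) binds 4-1BB ligand (Tnfsf9), CD27 binds CD70, and GITR (Tnfrsf18) binds the ligand encoded by Tnfsf18. CD40 works in the other direction: it sits on antigen-presenting cells and is engaged by CD40 ligand (Cd40lg) on helper T cells. ICOS belongs to the CD28 family and not to the TNF receptors, and is known for its role in helper and regulatory T cells.

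The study profiled immune cells of CT-2A tumours, an orthotopic mouse glioma model, in 4 mice labelled Siglece KO and 3 mice labelled WT, with 1 library per mouse. KO mice carried Sall1CreERT2, a tamoxifen-dependent Cre recombinase under the microglial gene Sall1, together with floxed Siglece alleles, and WT mice carried the floxed alleles without Cre. Mice of both genotypes were engrafted at 8 to 12 weeks of age and received 2.5 mg tamoxifen per injection, daily from day 7 to day 21 after engraftment and every other day thereafter, so tamoxifen is shared and Cre is not. Tumour-bearing hemispheres were dissociated, frozen, thawed, and sorted for live cells positive for CD45 and/or CD11b before 5′ single-cell RNA sequencing. Siglece is deleted where Sall1 drives Cre, so the members were measured mostly in cells that are not the target of the deletion.

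The libraries held 1410 to 5856 cells, 28644 in all, with a median depth of 4479 to 9554 UMIs per cell. Siglece in annotated microglia was 0, 0, 10.7 and 19.6 CPM in KO mice (0 to 2 UMIs each) and 18.6, 36.1 and 45.9 in WT mice (7 to 20 UMIs each). T cells made up 43.5%, 50.2%, 79.9% and 60.6% of the cells of the KO mice and 10.6%, 33.8% and 31.9% of those of the WT mice, so that the genotypes did not overlap. WT mouse 1, with the fewest T cells, had under 20 cells in several T cell populations and is absent from their means. Cell barcodes were shared between libraries by 926 cells. Annotated T cells, B cells and regulatory T cells (Tregs) carried their markers: all 7 T cell, all 5 B cell and all 4 Treg markers were highest there. Of the other lists, 4 of 5 NK cell, 4 of 5 macrophage, all 6 microglia, all 5 plasmacytoid dendritic cell and both gamma-delta T cell markers were highest in their population. In cDC1 (type 1 conventional dendritic cells) only 2 of 4 were, Xcr1 and Clec9a, while Batf3 was highest in cDC2 and Irf8 in plasmacytoid dendritic cells. The population labelled cDC2 (type 2 conventional dendritic cells) did not: 0 of 4 cDC2 markers were highest in it, while all 4 markers of migratory dendritic cells (Ccr7, Fscn1, Ccl22 and Il4i1) were. It is called cDC2-labelled below.

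Several members lie beside each other in the genome (coordinates from the GENCODE annotation of build mm10). Tnfrsf4 (chromosome 4, 156013843 to 156016612) and Tnfrsf18 (chromosome 4, 156026164 to 156028895) are neighbours on the plus strand. Tnfrsf9 lies on the same chromosome (150914562 to 150946102). The ligand genes Tnfsf9 (chromosome 17, 57105325 to 57107757) and Cd70 (chromosome 17, 57145997 to 57149777) are neighbours on opposite strands. Icos (chromosome 1, 60977927 to 61000320) follows Ctla4, another receptor of the CD28 family. Tnfrsf9, Tnfrsf18, Cd27 and Tnfsf9 overlap a gene on the opposite strand, and Icos overlaps a gene model on its own strand. Whether reads were counted by strand is not given in the sources used here.

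RefSeq's promoter table (build GRCm38.p6) held windows for 4 members, Tnfrsf4, Tnfrsf9, Tnfrsf18 and Cd27. The stretches before a start site that lie outside annotated exons are shown for Tnfrsf4, Tnfrsf18 and the downstream start of Tnfrsf9, because these 3 receptor genes of chromosome 4 had a high level both in Tregs and in cDC2-labelled cells. Cd27, whose level was high in Tregs and near 0 in cDC2-labelled cells, is not shown. All are on the plus strand, written 5′ to 3′, at chr4:156013611-156013694, chr4:156026072-156026163 and chr4:150927749-150927917.
Tnfrsf4: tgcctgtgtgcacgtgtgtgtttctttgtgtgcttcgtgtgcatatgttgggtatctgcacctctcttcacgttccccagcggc
Tnfrsf18: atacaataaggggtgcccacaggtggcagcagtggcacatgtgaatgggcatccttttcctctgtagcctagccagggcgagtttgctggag
Tnfrsf9: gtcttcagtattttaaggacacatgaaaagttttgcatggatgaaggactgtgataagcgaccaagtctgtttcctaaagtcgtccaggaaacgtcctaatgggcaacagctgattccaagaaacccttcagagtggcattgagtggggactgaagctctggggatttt
The windows of 300 bases around the start sites were searched on both strands for the NF-kB letters GGNNTTTCC, found in 5.82% of 32851 windows, and the AP-1 letters TGANTCA, found in 7.81%. The second Tnfrsf9 window, at the downstream start, held both, in bases annotated as exon and so outside the stretch printed. The first Tnfrsf9 window, which is not printed, and the windows of Tnfrsf4, Tnfrsf18 and Cd27 held neither. No letter is in capitals because no printed stretch held a match. A match is a description of the letters and not a binding site.

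Across the 23 populations, 5 of the 6 receptor genes had their highest mean in Tregs. The populations were annotated from the same cells, so these levels are a description and were not tested. Each mean is over mice with at least 20 cells of the population, and neighbours in the order are said to differ beyond their spread where their mean ± SD intervals did not overlap.

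**Figure D1:**
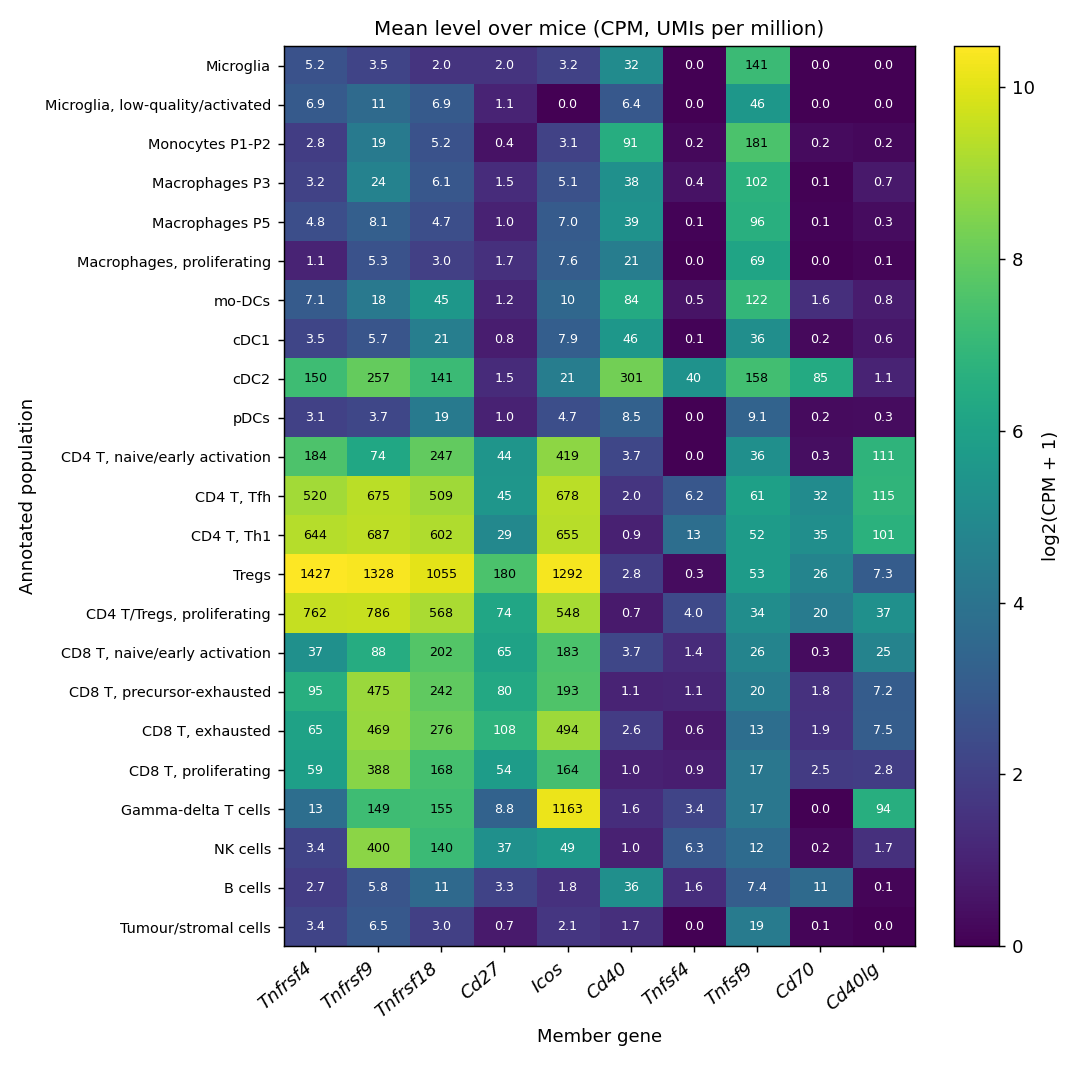
Mean level of each of the 10 members (columns) in each of the 23 annotated populations (rows), in CPM averaged over mice with at least 20 cells, with the colour on a log2(CPM + 1) scale. Tnfrsf4, Tnfrsf9, Tnfrsf18, Cd27 and Icos are brightest in the Treg row, and Cd40, Tnfsf4 and Cd70 in the cDC2 row.

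Tnfrsf4, which encodes OX40, was at 1477, 973, 1758 and 1127 CPM in the Tregs of the KO mice and at 1678 and 1552 in those of 2 WT mice. The mean was 1427 ± 312 (SD, n = 6). Proliferating CD4 T cells/Tregs followed at 762 ± 239 (n = 6), Th1 at 644 ± 116 (n = 6) and Tfh (follicular helper) cells at 520 ± 145 (n = 6), and Tregs differed beyond spread from the first of these. Naive CD4 T cells were lower again at 184 ± 44.7 (n = 7). Among lymphocytes the CD4 populations were thus highest: the 4 CD8 populations lay between 37 and 94.6, gamma-delta T cells at 13 (7.74 without WT mouse 3) and NK cells at 3.4.

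Tnfrsf9, which encodes 4-1BB, was spread more widely over lymphocytes. Treg levels were 1489, 793, 1177 and 1769 in KO mice and 1540 and 1197 in WT mice, with a mean of 1328 ± 344 (n = 6). Proliferating CD4 T cells/Tregs (786 ± 136, n = 6), Th1 (687 ± 175, n = 6), Tfh (675 ± 309, n = 6), precursor-exhausted CD8 (475 ± 153, n = 7) and exhausted CD8 T cells (469 ± 189, n = 6) came next. The step from Tregs to the first of these exceeded the spread and the steps among them did not. NK cells held 400 ± 145 (n = 7), with 572, 340.5, 213 and 342 in KO mice and 461, 281 and 592 in WT mice. The contrast with Tnfrsf4 was marked in NK cells, where Tnfrsf4 had 1 to 7 UMIs per mouse.

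Tnfrsf18, which encodes GITR, was at 1055 ± 176 in Tregs (n = 6), against 602 ± 141 in Th1 cells (n = 6), a step beyond the spread. Icos was at 1292 ± 240 in Tregs (n = 6). Gamma-delta T cells were within the spread of that value, at 1163 ± 344 (n = 4), and had 1170 in KO mouse 1 and 1389, 674 and 1418 in the 3 WT mice. Other CD4 populations had Icos at 419 to 678 and exhausted CD8 T cells at 494 ± 108 (n = 6). Cd27, whose protein marks naive and memory T cells and binds CD70, was at 180 ± 57.4 in Tregs (n = 6) and 108 ± 22.7 in exhausted CD8 T cells (n = 6), and none of the 22 steps of its order exceeded the spread.

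**Figure D2:**
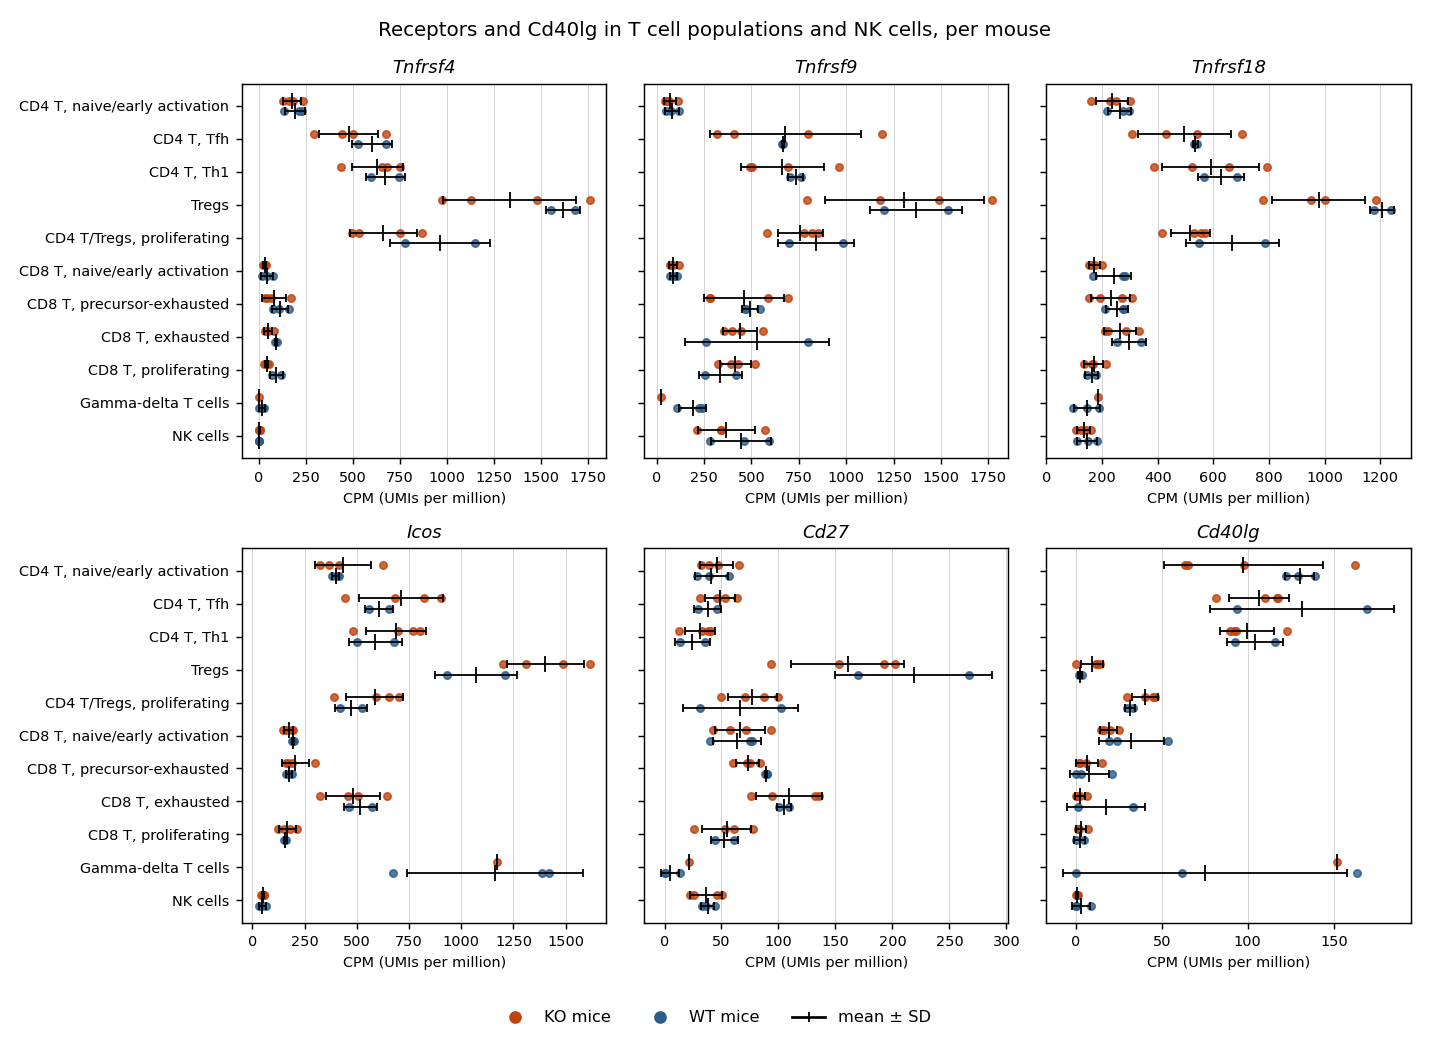
Levels of Tnfrsf4, Tnfrsf9, Tnfrsf18, Icos, Cd27 and Cd40lg (CPM, linear axes that differ by panel) in the 10 T cell populations and NK cells; each point is 1 mouse with at least 20 cells of the population, and black marks are mean ± SD by genotype. Treg points lie towards the right in the 5 receptor panels. They overlap gamma-delta T cell points for Icos and points of other T cell populations for Cd27. In the Cd40lg panel Treg points lie near 0, with KO and WT points between 0 and 14.

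At single-cell level, 4 of the receptors were each detected in most Tregs. After each cell was thinned to 1500 UMIs, to give all cells 1 depth, and the 400 of 28644 cells with fewer UMIs were left out (248 of KO and 152 of WT mice, 21 of them Tregs and 10 cDC2-labelled cells), 80.1% of 1037 Tregs had an Icos UMI, 76.5% a Tnfrsf18 UMI, 74.3% a Tnfrsf9 UMI, 72.8% a Tnfrsf4 UMI and 21.4% a Cd27 UMI. Without thinning the share with a Tnfrsf4 UMI was 88.6%. B cells, taken as the background that free RNA gives, had 0.730%, 2.68%, 1.09%, 0.487% and 0.243% for the same genes in the same order, at a median depth before thinning of 7302 UMIs against 3376 in Tregs. All of Tnfrsf4, Tnfrsf9, Tnfrsf18 and Icos were detected in the same cell in 36.8% ± 8.92 of Tregs (n = 6 mice), where the product of the 4 shares within each mouse averaged 33.3% ± 8.07. The share was 15.6% ± 5.45 of proliferating CD4 T cells/Tregs (n = 6), 11.4% ± 4.93 of Th1 cells (n = 6) and 8.74% ± 4.74 of Tfh cells (n = 6). In exhausted CD8 T cells the share was 0.794% ± 0.806 (n = 6).

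Cd40lg, the helper T cell ligand of CD40, had a different order from the receptors. Tfh (115 ± 30.2, n = 6), naive or early activated CD4 (111 ± 37.3, n = 7) and Th1 cells (101 ± 14.4, n = 6) were within each other's spread. Gamma-delta T cells had 94.3 ± 77.6 (n = 4), a mean with a wide spread. Tregs had 7.26 ± 6.09 (n = 6), made of 0 to 17 UMIs per mouse, and exhausted CD8 T cells 7.51 ± 13.0 (n = 6), a mean set by WT mouse 2 with 33.6 from 5 UMIs that was 2.29 ± 2.66 without it. The 3 populations with most Cd40lg were thus CD4 T cells other than Tregs.

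Cd40, the receptor on antigen-presenting cells, was highest in cDC2-labelled cells. It was at 244, 225, 260 and 278 CPM in KO mice and 431, 276 and 392 in WT mice, a mean of 301 ± 78.4 (n = 7). Monocytes (91.1 ± 34.4, n = 7), mo-DCs (monocyte-derived dendritic cells; 84.2 ± 34.1, n = 7), cDC1 (45.7 ± 11.2, n = 7), macrophages P5 (39.4 ± 11.1, n = 7), macrophages P3 (37.6 ± 9.48, n = 7) and B cells (36.2 ± 21.4, n = 6) followed. The step from cDC2-labelled cells to monocytes exceeded the spread and the steps between the others did not. After thinning, 29.2% of 944 cDC2-labelled cells had a Cd40 UMI and 12.4% of monocytes did.

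Tnfsf9, which encodes the ligand of 4-1BB, was spread over several myeloid populations. Monocytes labelled P1-P2 had 189, 110, 223 and 203 CPM in KO mice and 207, 155 and 181 in WT mice, a mean of 181 ± 38.1 (n = 7). The cDC2-labelled cells (158 ± 56.9, n = 7), microglia of the WT mice (141 ± 82.6, n = 3), mo-DCs (122 ± 27.8, n = 7) and macrophages P3 (102 ± 23.1, n = 7) were within the spread of their neighbours. Microglia of each KO mouse numbered under 20 in this population and were not compared. Levels in cDC1 (19.8 to 71.8) and plasmacytoid dendritic cells (1.62 to 21.3) were below those of monocytes. Tnfsf9 was also present in T cells, at 60.8 ± 11.2 in Tfh cells (n = 6).

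Tnfsf4 and Cd70, the ligands of OX40 and CD27, had low levels and were highest in cDC2-labelled cells. Cd70 was at 84.7 ± 21.4 there (n = 7), beyond the spread of Th1 cells at 35.4 ± 21.7 (n = 6). Tregs averaged 25.6 ± 48.5 (n = 6), a mean set by WT mouse 3 with 124 from 35 UMIs, while the other 5 mice had 0 to 12.5. In that mouse 26.8% of Tregs had a Ccr7 UMI, against 3.97% to 22.2% in the other mice, and whether the cells share both genes was not tested. Tnfsf4 was at 39.8 ± 22.8 in cDC2-labelled cells (n = 7), from 2.91 (3 UMIs, WT mouse 3) to 72.4 (KO mouse 3), and at 13.0 ± 3.01 in Th1 cells (n = 6).

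**Figure D3:**
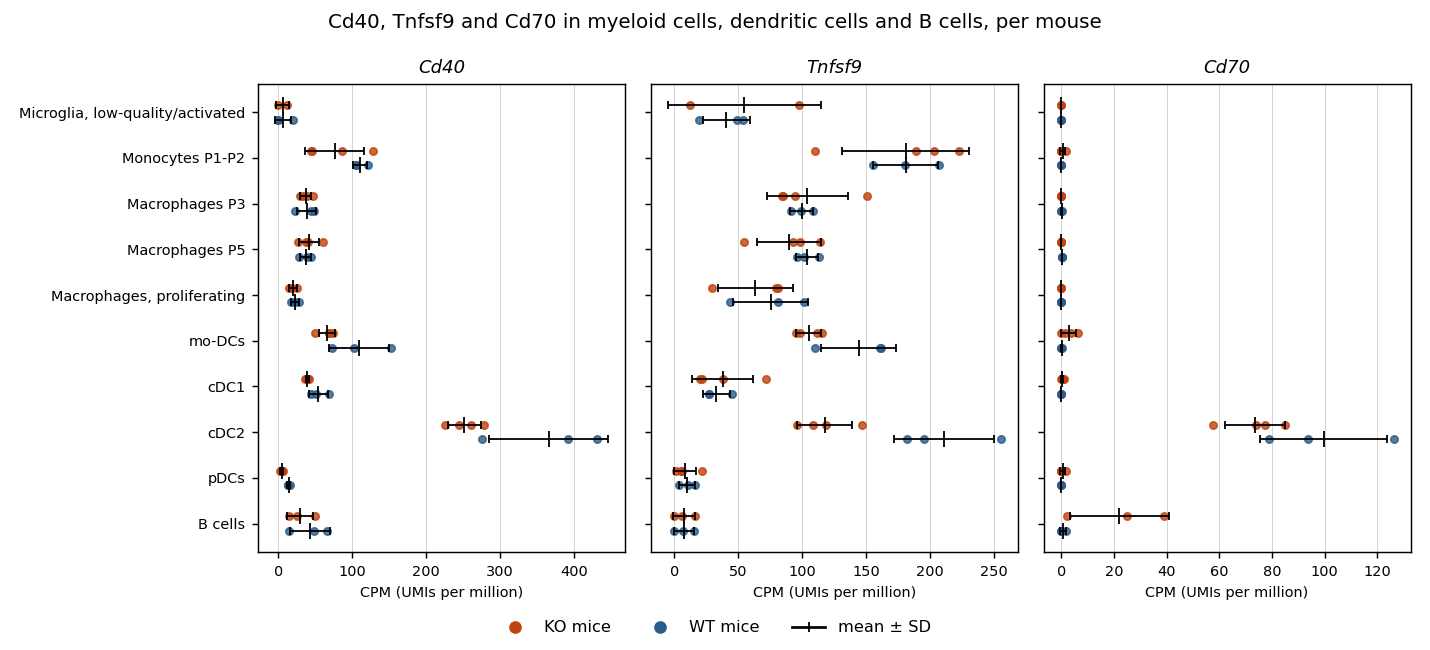
Levels of Cd40, Tnfsf9 and Cd70 (CPM, linear axes that differ by panel) in myeloid cells, dendritic cells and B cells; each point is 1 mouse with at least 20 cells, and black marks are mean ± SD by genotype. Cd40 and Cd70 are highest in the cDC2-labelled cells. Tnfsf9 points of mo-DCs overlap those of monocytes, while most macrophage points lie below the lowest monocyte point.

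The cDC2-labelled cells also held the receptors that are otherwise found in lymphocytes. Tnfrsf9 was at 257 ± 81.8 CPM there (n = 7), Tnfrsf4 at 150 ± 72.0 (n = 7) and Tnfrsf18 at 141 (n = 7), while Cd27 was at 1.5. Icos was at 74.9 in KO mouse 1 and 4.16 to 19.4 in the other 6 mice, a mean of 21 that was 12.0 without KO mouse 1. Of these cells, 19.0% had a UMI of at least 1 of 7 T cell markers. With such cells left out, the pooled level of Tnfrsf4 was 155 (154 with all cells), that of Tnfrsf9 258 (256) and that of Tnfrsf18 146 (146), and that of Icos was 10.7 (16.2). Without KO mouse 1 the Icos level was 11.1 (12.2). In mo-DCs the same step took Tnfrsf4 from 7.39 to 1.67 and Tnfrsf9 from 19.2 to 7.19, and Tnfrsf18 from 44.6 to 39.8. KO mouse 4 set the first 2 of these: without it Tnfrsf4 went from 3.66 to 1.62 and Tnfrsf9 from 9.31 to 5.53, and Tnfrsf18 from 41.9 to 40.5. Tnfrsf4, Tnfrsf9 and Tnfrsf18 in cDC2-labelled cells were therefore as high in cells without T cell marker UMIs, and in mo-DCs only Tnfrsf18 stayed near its level.

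Within the cDC2-labelled cells, members were detected in overlapping sets of cells. Of 944 cells thinned to 1500 UMIs, 276 had a Cd40 UMI, 159 a Tnfsf9 UMI and 71 both, or 7.52%, where the product of the 2 shares is 4.92%. Cd40 and Tnfrsf9 UMIs were found together in 63 cells, or 6.67%, where the product is 7.40%. Cells were not counted as replicates, and no test was made.

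Which genes had patterns most like each member was read from Pearson's r over the 23 populations, on log2(mean CPM + 1), a description in which the points share libraries and annotation. Icos was most like Camk4 (r = 0.98), Cd27 like Igflr1 (r = 0.97) and the T cell genes Lck (r = 0.96) and Cd2 (r = 0.95), and Tnfrsf18 like Rhof (r = 0.96). Tnfrsf4 was most like C2cd4b (r = 0.95) and Sdf4 (r = 0.93), the latter being its neighbour on the plus strand, whose exons reach into the Tnfrsf4 promoter window. Tnfrsf9 was most like another member, Tnfrsf18 (r = 0.92). Cd40 was most like Ifi30 (r = 0.92) and the class II gene H2-Aa (r = 0.92), which serve antigen presentation, and Cd70 like Ccr7 (r = 0.85), a migration receptor of dendritic and T cells. Tnfsf9 was most like Tmem106a (r = 0.87), Tnfsf4 like Gm47662 (r = 0.91) and Cd40lg like Tnfrsf25 (r = 0.94), a receptor of the same superfamily.

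The genotype comparison asks whether the members differ between KO and WT mice within a population. Summed UMIs per mouse were tested with edgeR's quasi-likelihood test, with Benjamini-Hochberg adjustment over all genes of each fit and a threshold of 0.05. Members passed the filter on low counts in 20 populations, in 107 tests: Tnfrsf9 in 17, Tnfrsf18 and Tnfsf9 in 16, Icos in 15, Tnfrsf4 in 13, Cd27 in 10, Cd40 in 8, Cd40lg in 6, Cd70 in 4 and Tnfsf4 in 2. No member was called in any population (0 of 107), where the share over all genes tested was 0.0166%. At an unadjusted p under 0.05 there were 23 of 107, 17 of them lower in KO mice, where the share over all genes was 5.43%. DESeq2 called 2 of the tests, where its share over all genes was 0.0907%. In 3 of the 107 tests, all 3 among the 23, only KO mice reached the filter's minimum level, so the filter let the gene in through the genotype where it was higher. Members of a fit share cells and mice, so these counts are not independent.

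The lowest p-values among the members were in cDC2-labelled cells. Tnfrsf4 was at 124, 81.9, 97.5 and 101 CPM in KO mice and at 271, 228 and 147 in WT mice. Every KO mouse was below every WT mouse. The log2 difference (KO over WT) was −1.20 (SE 0.21), with an adjusted p of 0.195 by edgeR. Tnfsf9, the ligand gene of 4-1BB, was at 96.3, 147, 118 and 109 in KO mice and at 182, 195 and 256 in WT mice, again without overlap. Its log2 difference was −0.93 (SE 0.18), with an adjusted p of 0.195 by edgeR. Of the 8 members tested in these cells, 2 had all KO mice below all WT mice, where the share over all genes was 2.92%.

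Cd40 in the same cells, at the levels given above, had a log2 difference of −0.63 (SE 0.18, adjusted p = 0.361 by edgeR), and the lowest WT mouse lay within the KO range. Cd70 was at 57.8, 77.4, 73.8 and 84.9 in KO mice and 93.7, 78.8 and 126 in WT mice, a log2 difference of −0.50 (SE 0.20, adjusted p = 0.444 by edgeR) that was −0.28 without WT mouse 3. Tnfrsf9 (KO 168 to 387, WT 159 to 295) and Tnfrsf18 (KO 109 to 153, WT 127 to 188) overlapped between genotypes. So the members with unadjusted p under 0.05 in these cells, Tnfrsf4, Tnfsf9, Cd40 and Cd70, were all lower in KO mice, and the share of all genes with such a p was 9.67%.

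The calls in cDC2-labelled cells depended on the setting. Tnfrsf4 passed the threshold in 5 of 18 alternatives and Tnfsf9 in 3 of 18. Adjusted p ranged from 6.37e-07 to 0.663 for Tnfrsf4 and from 0.000435 to 0.663 for Tnfsf9. Both lowest values came from edgeR without the low-count filter, a setting that called many more genes of all kinds over the populations (counts in the last section). DESeq2 gave 0.00275 for Tnfrsf4 and 0.00679 for Tnfsf9, where it called 0.166% of all genes. Without WT mouse 3, the WT mouse nearest to the KO mice for Tnfrsf4, edgeR gave a log2 difference of −1.40 for it with an adjusted p of 0.0151. With only the cells that had no T cell marker UMI, chosen after seeing the data, Tnfrsf4 differed by −1.50 (SE 0.23, adjusted p = 0.0304 by edgeR, where 0.0546% of all genes were called). With only the cells that had a Ccr7 UMI, also chosen afterwards, it differed by −1.17 (adjusted p = 0.210 by edgeR). The share of cDC2-labelled cells with a T cell marker UMI was 15.2%, 19.0%, 37.9% and 24.5% in KO mice and 5.76%, 16.9% and 20% in WT mice.

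**Figure D4:**
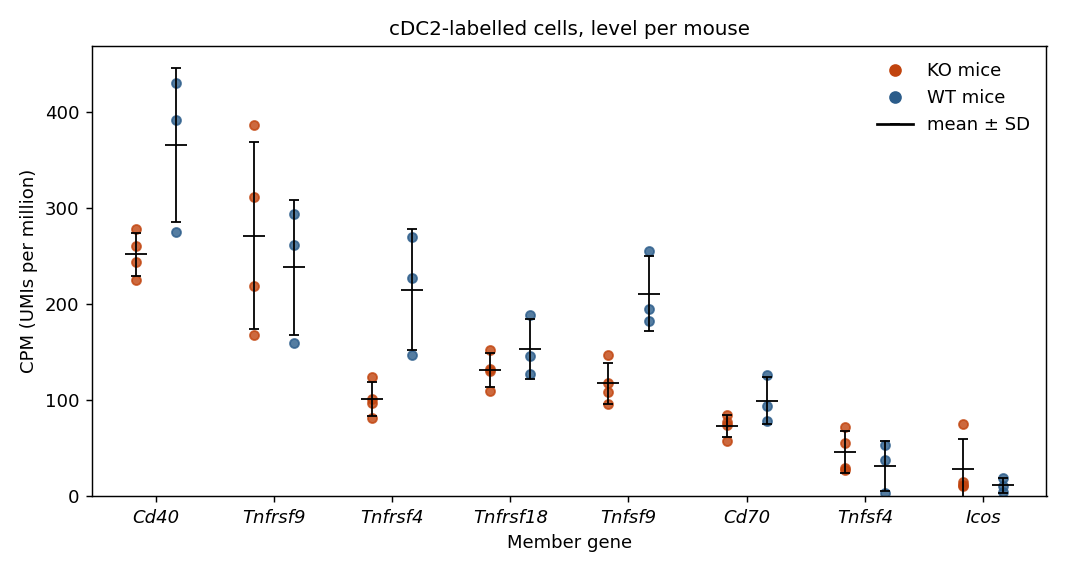
Level per mouse (CPM) of the 8 members tested in cDC2-labelled cells, for 4 KO and 3 WT mice, with mean ± SD. KO points lie below WT points without overlap for Tnfrsf4 and Tnfsf9, and overlap for the other 6 genes.

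In mo-DCs and cDC1 Cd40 had lower fitted levels in KO mice, without being called. In mo-DCs it was at 69.2, 49.9, 74.4 and 68.6 in KO mice and at 153, 102 and 72.1 in WT mice, a log2 difference of −0.79 (SE 0.23, adjusted p = 0.548 by edgeR) that was −0.48 without WT mouse 1. In cDC1 it was at 40.1, 36.3, 38.6 and 42.0 in KO mice and 43.6, 50.5 and 68.9 in WT mice, a log2 difference of −0.48 (SE 0.16, adjusted p = 0.732 by edgeR) that was −0.28 without WT mouse 3. Genotypes did not overlap there, where 3.21% of all genes had all KO mice below all WT mice. Tnfsf9 in mo-DCs was at 94.9 to 115 in KO mice and 110 to 161 in WT mice, a log2 difference of −0.50 (SE 0.16, adjusted p = 0.559 by edgeR). Tnfrsf9 in cDC1 lay the other way, at 0, 9.17, 6.73 and 18.2 in KO mice and 0.516, 2.65 and 2.91 in WT mice, from 0 to 79 UMIs each. Its log2 difference was 2.20 (SE 0.80, adjusted p = 0.797 by edgeR), and KO mouse 1 lay below all WT mice. In cDC1, 11.3% to 41.8% of cells had a T cell marker UMI in KO mice and 1.94% to 15.7% in WT mice, and over all mice together Tnfrsf9 was at 6.48 with all cells and at 1.77 in the cells without such a UMI (4.25 and 1.41 without KO mouse 4). In monocytes, macrophages P3 and macrophages P5 neither Cd40 nor Tnfsf9 had an unadjusted p under 0.05.

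Among T cells, the members with an unadjusted p under 0.05 included Tnfrsf4 in 2 CD8 populations. Naive or early activated CD8 T cells had Tnfsf9, Cd40lg and Tnfrsf18 (log2 differences −0.98, −0.92 and −0.44), and naive or early activated CD4 T cells Cd40lg (−0.58). Tfh cells had Cd70 (−0.80), and proliferating CD4 T cells/Tregs had Tnfrsf4 and Tnfrsf18 (−0.56 and −0.38). Cd70 in Th1 cells and Icos in Tregs are given below. In exhausted CD8 T cells Tnfrsf4 was at 81.1, 51.3, 37.4 and 35.1 in KO mice and 87.4 and 97.0 in 2 WT mice, a log2 difference of −1.12 (SE 0.31, adjusted p = 0.744 by edgeR). In proliferating CD8 T cells it was at 53.5, 29.0, 44.5 and 40.3 in KO mice and 118 and 71.0 in WT mice, a log2 difference of −1.07 (SE 0.28, adjusted p = 1.00 by edgeR). No KO mouse reached these 2 WT mice in either population, where 6.51% and 5.27% of all genes lay so. Both rest on 2 WT mice, since WT mouse 1 had 9 and 14 such cells. In those few cells Tnfrsf4 was at 44.0 CPM (2 UMIs), within the KO range, and at 22.6 (4 UMIs), below every KO mouse. Cd70 in Th1 cells was at 20.9, 31.4, 22.1 and 22.1 in KO mice and 38.4 and 77.5 in WT mice, a log2 difference of −1.26 (SE 0.29, adjusted p = 0.939 by edgeR) that was −0.65 without WT mouse 3, and 5.98% of all genes had KO mice all below WT mice in these cells. WT mouse 1 had 8 Th1 cells, so the value without WT mouse 3 rests on WT mouse 2 alone, which is assumed to vary like the KO mice. In the 8 cells of WT mouse 1 Cd70 was at 26.3 CPM from 2 UMIs, within the KO range. In WT mouse 3, the highest for Cd70, 59.1% of Th1 cells had a Ccr7 UMI, against 21.2% to 39.9% in the other mice.

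Icos in Tregs was at 1309, 1199, 1615 and 1489 in KO mice and 1209 and 932 in WT mice, a log2 difference of 0.37 (SE 0.17, adjusted p = 0.977 by edgeR), with the groups overlapping. It was 0.19 without WT mouse 3 and 0.60 without WT mouse 2, each with 1 WT mouse left. The other Treg receptors had unadjusted p over 0.05. In macrophages P3 Icos was at 5.01 to 8.76 in KO mice and 2.52 to 3.28 in WT mice, and Tnfrsf18 at 5.63 to 11.6 and 1.50 to 4.53, both very low levels. The filter's minimum was 5.01 CPM there, which all 4 KO mice and no WT mouse reached for either gene, so both entered the test through the KO mice and their lack of overlap is read as a description only. Their log2 differences were 1.21 (SE 0.38) and 1.14 (SE 0.42), with adjusted p of 0.867 and 0.890 by edgeR, where 3.08% of all genes had all KO mice above all WT mice. The share of these macrophages with a T cell marker UMI was 10.9% to 43.4% in KO mice and 2.90% to 16.3% in WT mice, and its part in the difference was not tested. In macrophages P5 Icos was at 6.22 to 11.7 in KO mice and 2.07 to 6.29 in WT mice, a log2 difference of 1.07 (SE 0.38, adjusted p = 0.698 by edgeR) with overlapping groups that was 0.70 without WT mouse 1. Its level over all mice together was 6.05 there with all cells and 3.06 in the cells without a T cell marker UMI. Tnfrsf9 in tumour/stromal cells was at 9.34 and 15.1 in the 2 KO mice with enough cells and at 1.91, 3.36 and 2.52 in WT mice, from 2 to 19 UMIs each. Its log2 difference was 2.15 (SE 0.52, adjusted p = 0.259 by edgeR), where 12% of all genes had all KO mice above all WT mice. Here too only the 2 KO mice reached the filter's minimum of 6.72 CPM, and the lack of overlap is a description only. In those cells 23.1% and 31.6% had a T cell marker UMI in KO mice and 10.8% to 22.9% in WT mice, which was not tested as a cause.

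Joined into 9 classes of cells, the members again had no call (0 of 39 tests, where the share over all genes was 0.0111%), and 7 of 39 had an unadjusted p under 0.05, where the share was 6.64%. The classes of mo-DCs, NK cells, B cells, plasmacytoid dendritic cells and tumour or stromal cells each hold a single population. Their tests repeat those above, among them 2 of the 7 in mo-DCs and 1 in tumour or stromal cells. In the latter, Tnfrsf9, only KO mice reached the filter's minimum level. DESeq2 called none of the members in the classes, where its share over all genes was 0.173%. In the class of T cells all 10 members were tested, all 10 log2 differences were below 0 and their median was −0.37, where the median of all genes was 0.01. Cd40, at −1.54, was near the floor there. The filter's minimum of 1.20 CPM was reached by 1 of 4 KO mice and 3 of 3 WT mice, and T cells held only 0.401% to 2.61% of Cd40 UMIs. With each mouse left out in turn, 8 to 10 were below 0 and the median ranged from −0.60 (without WT mouse 1) to −0.13 (without WT mouse 2). The class was made of different populations in the mice. Precursor-exhausted CD8 T cells were 23.5%, 41.0%, 53.8% and 33.1% of the T cells of KO mice, the largest population in each, and 6.75%, 10.6% and 35.4% of those of WT mice, where naive or early activated CD8 T cells were the largest in WT mouse 1 (26.4%) and WT mouse 2 (19.0%). Gamma-delta T cells were 0.290% to 4.4% in KO mice and 25.7%, 3.32% and 2.30% in WT mice. The levels above differ between these populations, so a difference over the class and a difference in its make-up cannot be told apart.

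Within the 9 single T cell populations tested, 45 of 63 log2 differences of the members were below 0, with a median of −0.13. The medians of the populations ranged from −0.44 (naive or early activated CD8) to 0.00 (proliferating CD4 T cells/Tregs). Medians of all genes in these populations lay between −0.002 and 0.026. Tnfrsf4, from −1.12 to −0.09, and Tnfrsf18, from −0.44 to −0.007, were below 0 in all 9. The upper end of Tnfrsf18 was close to 0. The populations come from the same mice, and several, such as Tregs and Th1 cells, were tested with the same 2 WT mice. The 45 of 63 and the 9 of 9 are therefore not independent observations. How many of all genes were below 0 in all 9 is not given here. Icos had a log2 difference of −0.23 over the class and lay between −0.16 and 0.37 in the single populations, where it was below 0 in only 2 of 9.

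Over whole libraries, where a difference in the number of cells of a type and in RNA per cell cannot be told apart, all KO mice lay above all WT mice for Icos and Cd27 and below them for Cd40 and Tnfsf9. Icos was at 176, 124, 247 and 195 CPM in KO mice and at 39.2, 118 and 97 in WT mice, a log2 difference of 1.14 (SE 0.40, adjusted p = 0.190 by edgeR). Cd27 had a log2 difference of 1.33 (SE 0.52, adjusted p = 0.216 by edgeR). Cd40 was at 27.7, 26.3, 20.8 and 30.3 in KO mice and at 68.7, 45.6 and 44.7 in WT mice, a log2 difference of −1.01 (SE 0.19, adjusted p = 0.159 by edgeR), and Tnfsf9 had a log2 difference of −0.71 (SE 0.13, adjusted p = 0.159 by edgeR). KO and WT mice did not overlap for these 4 of 10 genes, 2 above and 2 below, where the shares over all genes were 10.9% and 8.88%. The other 6 overlapped, among them Tnfrsf4 (KO 70.3 to 133, WT 25.4 to 149), Tnfrsf9 (KO 151 to 335, WT 44.3 to 184) and Tnfrsf18 (KO 107 to 215, WT 34.5 to 135). No member was called by edgeR, which called 0% of all genes, although 20.5% had an unadjusted p under 0.05. DESeq2 called Cd40, Icos and Tnfsf9, and 7.83% of all genes. T cell shares of the cells, given above, moved with genotype in the same libraries.

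Where each member's UMIs lay was therefore compared. The share of a member's UMIs held by T cells rises with the share of T cells in the library. That share of cells did not overlap between the genotypes, so the comparison does not test the level per cell. T cells held 95.7%, 93.9%, 96.8% and 93.1% of Tnfrsf4 UMIs in KO mice and 54.8%, 91.0% and 92.6% in WT mice. Means were 94.9% ± 1.69 and 79.5% ± 21.4 (exact permutation test, two-sided, p = 0.0286, the smallest that 35 divisions of 7 mice allow, and 0.286 adjusted over the 10 members, the smallest that a lone member can reach). Without WT mouse 1, in which conventional dendritic cells held most of the rest, the difference was 3.07 percentage points in place of 15.4. T cells held 27.6% ± 13.5 of Tnfsf9 UMIs in KO mice and 8.87% ± 5.87 in WT mice (exact permutation p = 0.0571, adjusted 0.286), a difference of 18.7 percentage points that was 12.2 without KO mouse 3. For the other 8 members the exact p was 0.286 or higher. An adjusted p under 0.05 would need at least 6 members at the smallest exact p, so the adjusted values cannot show that the shares did not differ.

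**Figure D5:**
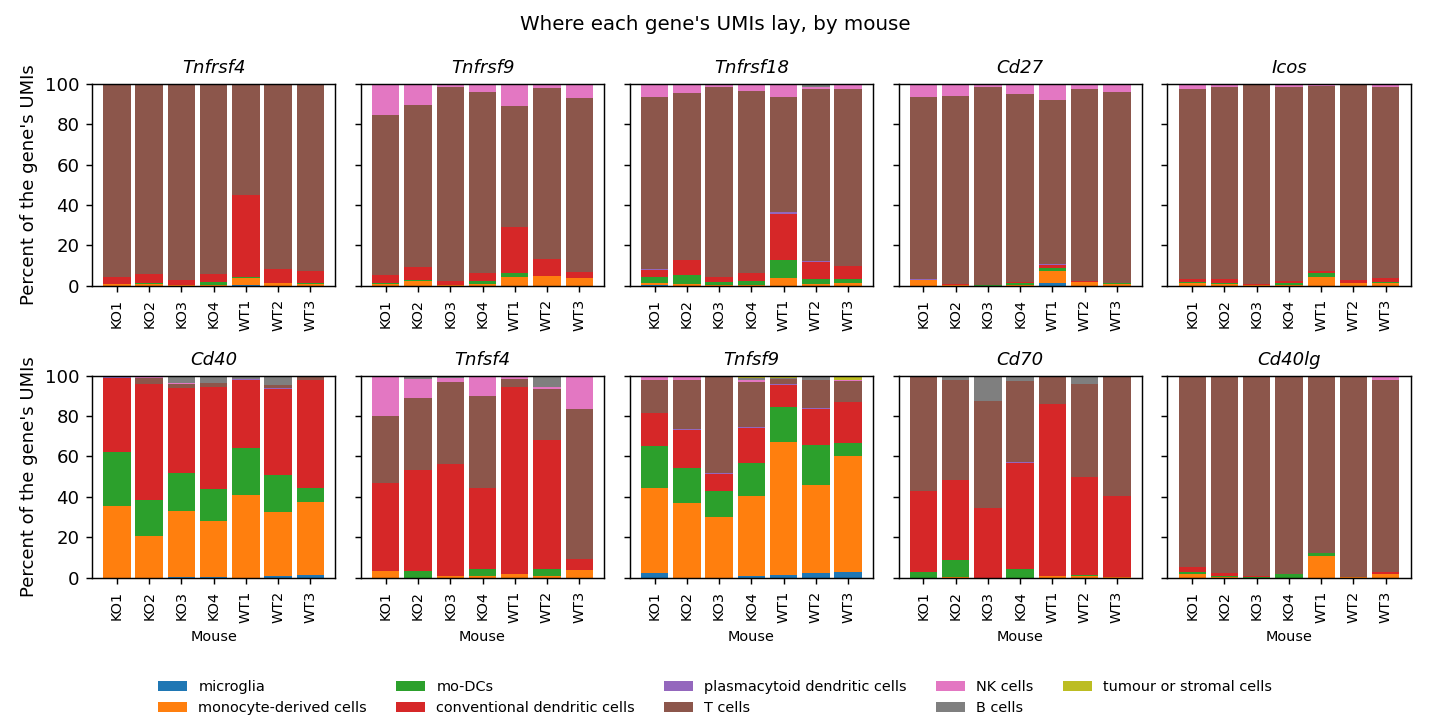
Percent of each member's UMIs that lay in each of 9 cell classes, 1 bar per mouse (4 KO and 3 WT). T cells hold most UMIs of Tnfrsf4, Tnfrsf9, Tnfrsf18, Cd27, Icos and Cd40lg in every mouse, and WT mouse 1 has the lowest T cell share for Tnfrsf4 (54.8%), Tnfrsf9 (59.5%) and Tnfrsf18 (56.9%).

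The pathway was covered by 33 further genes: other receptors and ligands of the family, TRAF adaptors, NF-kB subunits and NF-kB targets. No gene of the list was called in any of the 9 classes (0 of 216 tests, where the share over all genes was 0.0111%). At an unadjusted p under 0.05 there were 21, or 9.72%, 12 higher and 9 lower in KO mice, where the share over all genes was 6.64%. The 5 lowest p-values were those of Traf3, an adaptor that restrains noncanonical NF-kB, in microglia (log2 difference 1.16, adjusted p = 0.208), Tnfrsf25, the receptor DR3, in T cells (−1.84, adjusted p = 0.721), Bcl2l1, an anti-apoptotic NF-kB target, in microglia (0.97, adjusted p = 0.242), Ctla4 in plasmacytoid dendritic cells (1.27, adjusted p = 0.650) and Nfkb2, the subunit of the noncanonical route, in T cells (−0.68, adjusted p = 0.721), all by edgeR. The microglia class joined microglia with low-quality or activated microglia, where Traf3 was at 19.26 and 75.95 CPM and Bcl2l1 at 79.55 and 87.5. It had 3 KO mice with enough cells, and the part of its make-up in these differences was not tested. In T cells 6 of the 31 listed genes tested had all KO mice below all WT mice, where the share over all genes was 4.23%. Whether these differences over the T cell class come with its make-up was not tested. Tnfrsf25 was at 100.5 CPM in gamma-delta T cells and 0.556 in precursor-exhausted CD8 T cells, and Nfkb2 at 87.7 and 34.6. In the single T cell populations Tnfrsf25 was tested in 3, with log2 differences from −0.72 to −0.71, and Nfkb2 in 9, with −0.89 to −0.25.

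In cDC2-labelled cells 26 of the 33 pathway genes were tested and 0 called, where edgeR called 0% of all genes. Of the 26, 22 had a log2 difference below 0, with a median of −0.19 where that of all genes was 0.01. With each mouse left out in turn, 18 to 23 of 25 to 27 were below 0 and the median ranged from −0.27 to −0.10, the latter without WT mouse 1. Bcl2l1 (−0.88, SE 0.20, adjusted p = 0.319 by edgeR) and Birc3, an E3 ligase bound by TRAF proteins (−0.74, SE 0.17, adjusted p = 0.319 by edgeR), had the lowest p-values, and 4 of 26 had all KO mice below all WT mice, where the share over all genes was 2.92%. These genes were read in the same cells and mice as Tnfrsf4 and Tnfsf9 and are not independent of them.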

How the data were processed

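Single-cell RNA sequencing (10x 5′ chemistry) was analysed for 7 mice, 4 Siglece KO and 3 WT. The deposited matrix holds expected counts, that is estimated UMI counts, of which 7.51% of non-zero values are not whole. The submitters' processing notes name STARsolo, STAR 2.7.10a, FastQC 0.11.5 and build mm10, and cell types are the authors' deposited annotation. How doublets were treated by the authors is not given in the sources used here, and no cell was removed except from thinned shares, which leave out cells under 1500 UMIs. UMIs were summed per mouse and population, rounded to whole numbers for the tests, and divided by the population's UMIs for levels. Populations with at least 20 cells per mouse and 2 mice per genotype were tested with edgeR 4.0.16 (TMM scaling, filterByExpr, quasi-likelihood, robust), adjusted over all genes tested, with DESeq2 1.42.0 as an alternative, in R 4.3.3. On simulated T cell sums of 4 KO and 3 WT mice, 12814 genes were tested. Of genes set 2-fold lower and higher, 26 of 46 and 23 of 50 were called. Of those set 4-fold, 49 of 49 and 50 of 50 were called, and 10 of 12619 unchanged genes. The simulation had the depth of the whole T cell class and the same fixed dispersion for every gene. Single populations had fewer UMIs and often fewer WT mice, and the make-up of the class varied between mice. These shares therefore do not tell how often such changes would be called in the tests above.

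The members and gene lists were chosen with earlier results of these data known. Named are all members, Siglece in microglia, pathway genes that were called or else the 5 with the lowest p, and for members with at least 200 UMIs the genes most alike among those with at least 500 UMIs. The p-values measure the spread between mice. Alternatives were other scaling, no filter, other cell minimums, DESeq2, leaving out each library, a replicate block, a sex term, whole parts of values and leaving out the top 5% of cells by UMIs. The sex in that term was not taken from the labels but read from Xist and Y-linked genes in each library.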

Additional observations from a re-analysis of the deposited data

Results flagged for a closer look

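Of 95 sets of 4 KO mice that were screened (levels of a member in a population at 20 or more CPM, and T cell shares of each member's UMIs), 4 had 1 mouse far from the other 3. Chance flags about 1 in 20 such sets. Icos in cDC2-labelled cells was at 74.9 CPM in KO mouse 1 (35 UMIs in 46 cells) against 11.1 to 14.9 in the others. In the same cells the 7 T cell markers summed to 283 CPM in KO mouse 1, against 43.8 to 48.0 in the other KO mice and 8.33 to 70.0 in WT mice, and their part in the Icos level was not tested.

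Tnfsf9 in macrophages P3 was at 151 CPM in KO mouse 4 (241 UMIs) against 84.5 to 94.5 in the other KO mice. Cd70 in Th1 cells was at 31.4 in KO mouse 2 (33 UMIs) against 20.9 to 22.1, all from few UMIs. Cd40lg in Th1 cells was at 123 in KO mouse 3 (161 UMIs) against 89.4 to 93.3.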

How the results depend on the processing

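Members called over the populations numbered 0, and 2 with DESeq2, 6 without the low-count filter and 0 to 1 with each mouse left out in turn. The 6 were Tnfrsf4 and Tnfsf9 in cDC2-labelled cells, Cd40 and Cd70 in mo-DCs, Cd70 in Th1 cells and Tnfrsf9 in tumour/stromal cells. Cd70 in mo-DCs was higher in KO mice (log2 difference 3.95, adjusted p = 0.0110 by edgeR), from 0 to 18 UMIs per mouse. Over classes the members called numbered 0, and 3 without the filter, and over whole libraries 0, and 3 with DESeq2. The 3 over classes lie in mo-DCs and tumour/stromal cells, each a class of a single population, and repeat calls among the 6. Shares over all genes are not given here for fits without the filter, with a replicate block or with a mouse left out. The member counts of those fits are a description only. Genes called of all kinds numbered 28 over populations, and 153 with DESeq2, 18 with at least 50 cells, 1159 without the filter, and 23 to 126 with a mouse left out (highest without KO mouse 4). Over classes they numbered 9, and 140 with DESeq2, 2 with at least 50 cells, 491 without the filter, 18 with a sex term, 5 without the top 5% of cells, and 7 to 56 with a mouse left out. Over whole libraries they numbered 0, and 1331 with DESeq2, 4 without the filter, and 0 to 2 with a mouse left out. With a replicate block, 2 member tests (Tnfrsf4, adjusted p = 0.0116, and Tnfsf9, adjusted p = 0.04996, both by edgeR in cDC2-labelled cells) and 333 genes over populations were called, 109 over classes and 10 over whole libraries. Tnfrsf9 in cDC1 moved from 2.20 to 1.32 on the log2 scale with that block. The labels give same-numbered mice only a number. Their deviations correlated at −0.29 to 0.26 over whole libraries, −0.07 to 0.07 in T cells and −0.215 to 0.135 in monocyte-derived cells. Differently numbered mice ranged from −0.36 to 0.53 over whole libraries. So few pairs cannot show whether same-numbered mice shared a batch. All log2 differences of the members with an unadjusted p under 0.05 kept their sign in the alternatives run: 471 values stayed over the threshold and 14 passed it. With a mouse left out, the T cell share difference in percentage points ranged from −1.43 to 5.67 for Cd27, −10.9 to 24.3 for Tnfsf4, −2.82 to 19.8 for Cd70 and −0.118 to 5.74 for Cd40lg, each below 0 without WT mouse 1, and for Tnfsf4 it was −0.0675 without WT mouse 2 and −0.870 without the top 5% of cells. The cause was not tested. Shares of cells with a UMI rise with depth by construction: in the population where each member was highest they were 5.51% to 80.1% at 1500 UMIs, 8.60% to 93.1% at 3000 UMIs and 14.8% to 92.4% without thinning. Levels there moved by less than 1 SD in all 40 alternatives. Low UMI totals limit Tnfsf4 (528) and Cd70 (1362), and 3 WT mice, often 2 in T cell populations, limit each test.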
